A study of Homo sapiens with 6 samples.

Results

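The genes that encode the proteins of the cytosolic ribosome were examined in LOX-IMVI cells with and without a knockdown of NFKBIZ. The genes were chosen by name: protein-coding genes called RPL or RPS followed by a number, with or without a closing letter, and RPLP0, RPLP1, RPLP2 and RPSA. The rule found 86 of the 47432 genes listed. They comprised 46 proteins of the large (60S) subunit, 31 of the small (40S) subunit, 7 paralogs, which are closely related copies of another ribosomal protein gene, and 2 Y-linked genes whose levels are not reported. Of the 86 genes, 82 had enough reads to be tested, among 13843 genes tested in all. RPL3L and RPL10L, paralogs of RPL3 and RPL10, had at most 1 read in any library and were not tested.

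LOX-IMVI is an established human melanoma cell line that makes IκBζ, the nuclear co-regulator encoded by NFKBIZ, without a stimulus. All libraries came from transduced, puromycin-selected cells. The shCtrl group carried the pLKO.1 control construct, and the shNFKBIZ group carried a single pLKO.1 hairpin against NFKBIZ, so an effect of that one hairpin and an effect of IκBζ loss cannot be told apart. Each group held 3 libraries of total RNA, with 22264473 to 24624839 exon reads per library. The sample labels do not say that replicates were separate cultures, whereas the methods of the study describe independent experiments. If they were not separate, the p-values measure the spread between these libraries only.

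Cytosolic ribosomal proteins assemble with ribosomal RNA into the 60S subunit, which forms peptide bonds, and the 40S subunit, which reads the mRNA. Most of their mRNAs begin with a C followed by a run of pyrimidines, the 5′ terminal oligopyrimidine (TOP) motif, through which their translation follows growth signals from mTORC1 and the RNA-binding protein LARP1. They are among the most abundant mRNAs of growing cells, they are usually made in matched amounts, and several serve as reference genes in quantitative PCR (qPCR). RPL37A was the reference gene for human qPCR in this study.

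The start sites of some of these genes are shown because many, though not all, open with a TOP run. Each line gives 30 bases of GRCh38.p14 around a start in RefSeq, 5′ to 3′ on the strand of the gene, with 10 bases before the start and 20 from it. Capitals mark the unbroken run of pyrimidines that opens the transcript with a C.
RPL37A, chr2:216498834-216498863, plus strand: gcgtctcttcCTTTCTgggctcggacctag
RPL13A, chr19:49487598-49487627, plus strand: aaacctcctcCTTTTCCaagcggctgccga
RPL38, chr17:74203668-74203697, plus strand: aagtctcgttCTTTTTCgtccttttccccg
RPLP0, chr12:120201092-120201121, minus strand: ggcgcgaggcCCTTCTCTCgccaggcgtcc
RPS6, chr9:19380217-19380246, minus strand: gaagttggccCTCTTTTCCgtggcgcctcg
RPL26, chr17:8383174-8383203, minus strand: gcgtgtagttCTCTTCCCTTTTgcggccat
RPL26L1, chr5:172958719-172958748, plus strand: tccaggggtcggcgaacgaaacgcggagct
RPS27, chr1:153990752-153990781, plus strand: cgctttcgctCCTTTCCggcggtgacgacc
RPS27L, chr15:63157458-63157487, minus strand: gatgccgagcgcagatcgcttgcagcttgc
RPL22, chr1:6199576-6199605, minus strand: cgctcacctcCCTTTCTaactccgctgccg
RPL22L1, chr3:170870176-170870205, minus strand: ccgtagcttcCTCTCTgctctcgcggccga
RPL37A and RPL13A, which were among the highest in log2 fold change, open with the same kind of run as RPL38 and RPLP0, which were lower in shNFKBIZ cells.

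A start was counted as TOP where the first base was C and at least 4 pyrimidines followed, read on the strand of the gene only. Of the 67 ribosomal protein genes with a RefSeq start in the table used, 47 had such a start (70.1%), against 1404 of 27305 genes (5.14%). Among the paralogs it was 1 of 5, RPL22L1, and among the other genes 46 of 62. RPL26L1 and RPS27L had no such run, whereas their parents RPL26 and RPS27 did. A run is a match of letters at an annotated start, which can lie some bases from the start used in these cells.

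NFKBIZ itself was measured first as a check of the labels. Levels are given as CPM, counts relative to the library size scaled with TMM factors. NFKBIZ had 66.0, 68.7 and 76.1 CPM in shCtrl and 20.7, 20.6 and 20.1 CPM in shNFKBIZ. It fell by 1.78 on the log2 scale with an SE of 0.058 (adjusted P = 7.2e-17 by edgeR). The melanocyte lineage markers were nearly absent in both groups, with a summed level of 3.19 to 4.23 TPM (a length-scaled share of the library) in shCtrl and 1.79 to 2.62 in shNFKBIZ for 8 genes, of which 3, SOX10 among them, had no read in any library. Markers of dedifferentiated melanoma cells summed to 673 to 704 TPM in shCtrl and 981 to 1007 in shNFKBIZ over 6 genes. Not all of them rose. Of the 5 tested, 4 were higher and 1, TEAD4, was lower (log2 fold change -0.34, adjusted P = 1.28e-05 by edgeR). NGFR had at most 3 reads in any library and was not tested. The sums for keratinocyte (4 genes, at most 80.7 TPM in any library) and epithelial markers (4 genes, 330 to 418 TPM) differed less. The sum for leukocyte markers was 96.7 to 100.2 TPM in shCtrl and 198 to 199.4 in shNFKBIZ and lay almost wholly in CD68, a lysosomal protein also made outside leukocytes. The part of these markers in the results below was not tested.

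The ribosomal protein mRNAs shifted by small amounts in both directions. By the edgeR quasi-likelihood test with Benjamini-Hochberg adjustment over all genes tested, 38 of the 82 genes were higher in shNFKBIZ cells at an adjusted P of at most 0.05, 15 were lower and 29 were not called. Across all genes, 32.5% were called higher and 32.8% lower. Among the 1618 genes at a mean log2 CPM of at least 7, the level of most ribosomal protein genes, 31.5% were called higher and 45.2% lower. None of the 82 genes passed a 2-fold change, whereas 8.96% of all genes and 4.08% of the abundant genes did. The median log2 fold change of the ribosomal protein genes was 0.04, against 0.0043 over all genes and -0.05 over the abundant genes.

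Called ribosomal protein genes were thus mostly higher, 71.7% of those called. With library size as the only scaling, 57 were higher and 8 lower, 87.7% of those called, and the median rose to 0.13. All genes moved the same way under that scaling, with 40.9% called higher, 26.4% called lower and a median of 0.09. After removal of a trend on length and GC content, 36 ribosomal protein genes were higher and 19 lower, against 36.8% and 31.2% of all genes. Their median of 0.0489 then exceeded that of all genes, 0.0362, by 0.013, where the difference had been 0.040, and without shCtrl replicate 3 it was 0.024. Individual genes were separated by little noise: the SD of log2 CPM within a group had a median of 0.034 over the genes. In 39 genes all 3 shNFKBIZ libraries lay above all 3 shCtrl libraries, in 19 all lay below, and in 24 the groups overlapped. The groups did not overlap in 70.7% of the ribosomal protein genes and in 68.7% of all genes, a share near that of all genes.

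**Figure D1:**
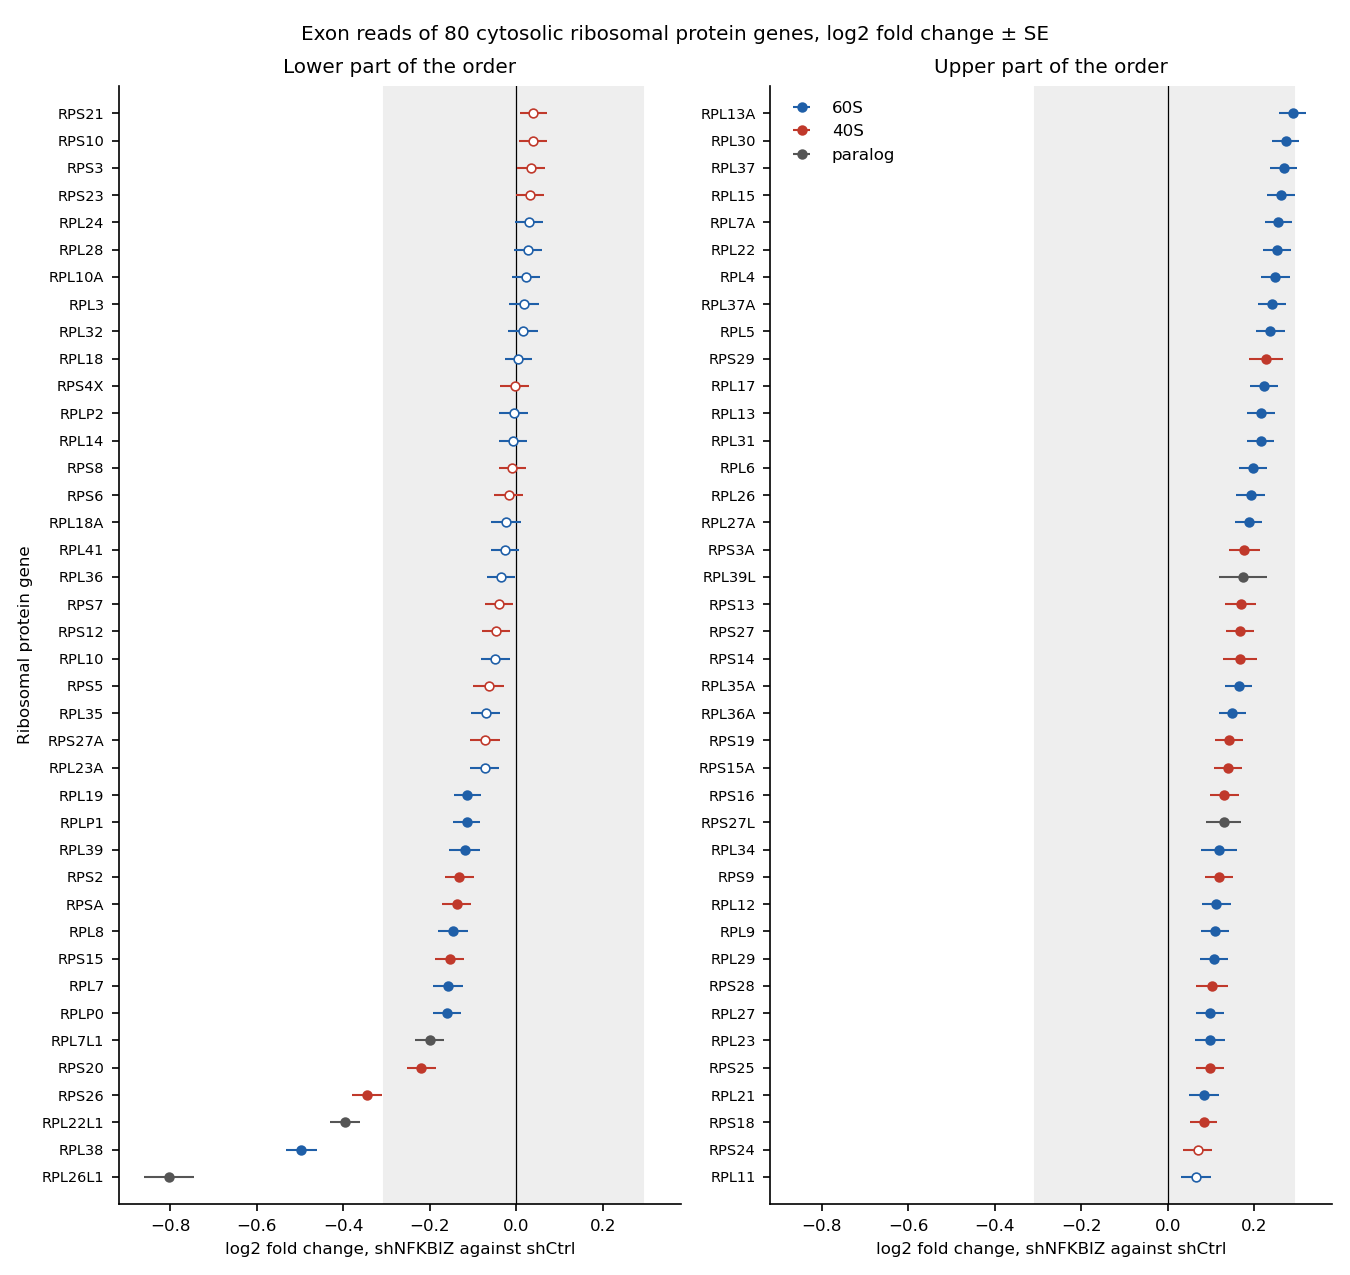
Log2 fold change of exon reads (shNFKBIZ against shCtrl, 3 libraries each) for 80 of the 82 tested genes in order, with its SE as a bar. Filled points had an adjusted P of at most 0.05, open points did not, and the grey band holds the middle quartiles of all 13843 genes. The genes run from -0.80 (RPL26L1) to 0.29 (RPL13A), and all but the lowest 4 lie inside the band.

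The spread of the 82 log2 fold changes had an SD of 0.18. It was narrower than that of all genes tested (SD 0.64) and of the 1618 abundant genes (SD 0.44). Of the 82 genes, 34 lay within 0.1 of 0, 40 lay within 0.1 of the median of the ribosomal protein genes, and 4 lay beyond 0.3. These 4, RPL26L1, RPL38, RPL22L1 and RPS26, were all lower in shNFKBIZ cells. Between the genes of a pair, taken over all 3321 pairs, the median difference in log2 fold change was 0.15, and 18.0% of pairs differed by over 0.3.

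Whether the genes moved as one block was tested by setting each gene against the mean of the ribosomal protein genes in the same library. Against that mean, 30 genes (36.6%) were higher and 22 (26.8%) lower in shNFKBIZ cells (edgeR quasi-likelihood test, adjusted P of at most 0.05). The other 30 were not called. By the same measure 28.8% of all genes tested were higher and 35.3% lower, 64.1% in all. The 52 called of the 82 were thus a share near that of all genes. The median size of the difference from the mean was 0.11 on the log2 scale. RPL13A was highest at 0.25 (adjusted P = 2.81e-08) and RPL26L1 lowest at -0.84 (adjusted P = 2.65e-11).

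As a sum, reads of the 86 genes took up a larger share of the shNFKBIZ libraries. Of all exon reads they held 7.17, 7.27 and 7.13% in the shCtrl libraries and 7.88, 7.86 and 7.90% in the shNFKBIZ libraries. Every shNFKBIZ library was above every shCtrl library, by 0.692 percentage points in the mean, which with 3 libraries against 3 gives the smallest exact two-sided permutation p, 0.1. On the TMM scale the mean log2 CPM of the 82 genes was 9.49 ± 0.023 (SD, n = 3) in shCtrl and 9.53 ± 0.015 in shNFKBIZ, and the libraries overlapped. The median log2 CPM of the same genes was 9.63 ± 0.020 in shCtrl and 9.70 ± 0.017 in shNFKBIZ, a difference of 0.071, and there the groups did not overlap (exact permutation p = 0.1, n = 3). The TMM factors themselves were 0.964 to 0.979 in shCtrl and 1.02 to 1.04 in shNFKBIZ, which is where the share of reads and the TMM-scaled level part. The summed share of the 10 most abundant other genes, picked with mitochondrial genes left out, went the opposite way. It was 5.10 to 5.38% in shCtrl and 4.86 to 4.94% in shNFKBIZ, though not each of the 10 fell. In bulk RNA, a change in the share of a gene set and a change in all other RNA per cell cannot be told apart.

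The 60S genes had a higher median than the 40S genes, a difference that was not tested. Of 46 genes of the 60S subunit, 24 were higher, 7 lower and 15 not called, with a median log2 fold change of 0.09. Of 31 genes of the 40S subunit, 12 were higher, 5 lower and 14 not called, with a median of 0.04. Genes with and without a TOP start in RefSeq had medians of 0.07 (47 genes, 23 higher and 6 lower) and 0.02 (19 tested genes, 9 higher and 5 lower). The 28 genes that host a small nucleolar RNA gene in their span, 60 such RNA genes in all, had a median of 0.07. For the 54 tested genes without one the median was 0.04. Over all genes tested, 32.5% were called higher and 32.8% lower, with a median of 0.0043. None of these differences between subgroups was tested.

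RPL37A (ENSG00000197756, hg38 chr2:216498825-216579180, plus strand) encodes a zinc-binding protein of the 60S subunit and was the qPCR reference. It had 928, 941 and 913 CPM in shCtrl and 1072, 1122 and 1096 CPM in shNFKBIZ. Every shNFKBIZ library was above every shCtrl library. This was a 1.18-fold rise, or 0.24 ± 0.032 (SE) in log2 fold change (adjusted P = 9.79e-07), and 7 of the 82 genes had a higher one. Against the mean of the ribosomal protein genes it rose by 0.21 (adjusted P = 2.51e-06).

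The primers used for RPL37A in qPCR are shown because they fix which part of the transcript served as the reference.
RPL37A forward: agatgaagagacgagctgtgg
RPL37A reverse: ctttaccgtgacagcggaag
On hg38 the forward primer matched chr2:216499953-216499973 in exon 3 of 4, and the reverse primer, as its complement, chr2:216501346-216501365 in exon 4 of 4. They bound a product of 104 bases across the last intron. In the transcript annotation used, 7 transcripts held exact matches to both primers, all of them RPL37A. Near matches and sequence outside annotated transcripts were not searched, so whether the product has other templates was not tested.

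The genes that rose most were proteins of the large subunit. RPL13A (ENSG00000142541, chr19:49487510-49493057, plus strand) had 1836, 1856 and 1804 CPM in shCtrl and 2245, 2252 and 2219 CPM in shNFKBIZ. The groups lay far apart for their spread, and it rose by 0.29 ± 0.032 in log2 terms (adjusted P = 5.26e-08). RPL13A is a 60S protein that also takes part in silencing inflammatory mRNAs after interferon-γ in monocytes, and it is a common reference gene.

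RPL30, a 60S protein that binds its own transcript, had 708, 716 and 706 CPM in shCtrl and 867, 847 and 859 CPM in shNFKBIZ. RPL37, another zinc-binding 60S protein, had 525, 530.0 and 533 CPM in shCtrl and 641, 627 and 645 CPM in shNFKBIZ. In both, no library of one group reached the other group. Their log2 fold changes were 0.27 ± 0.031 (adjusted P = 9.57e-08) and 0.27 ± 0.031 (adjusted P = 1.22e-07).

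**Figure D2:**
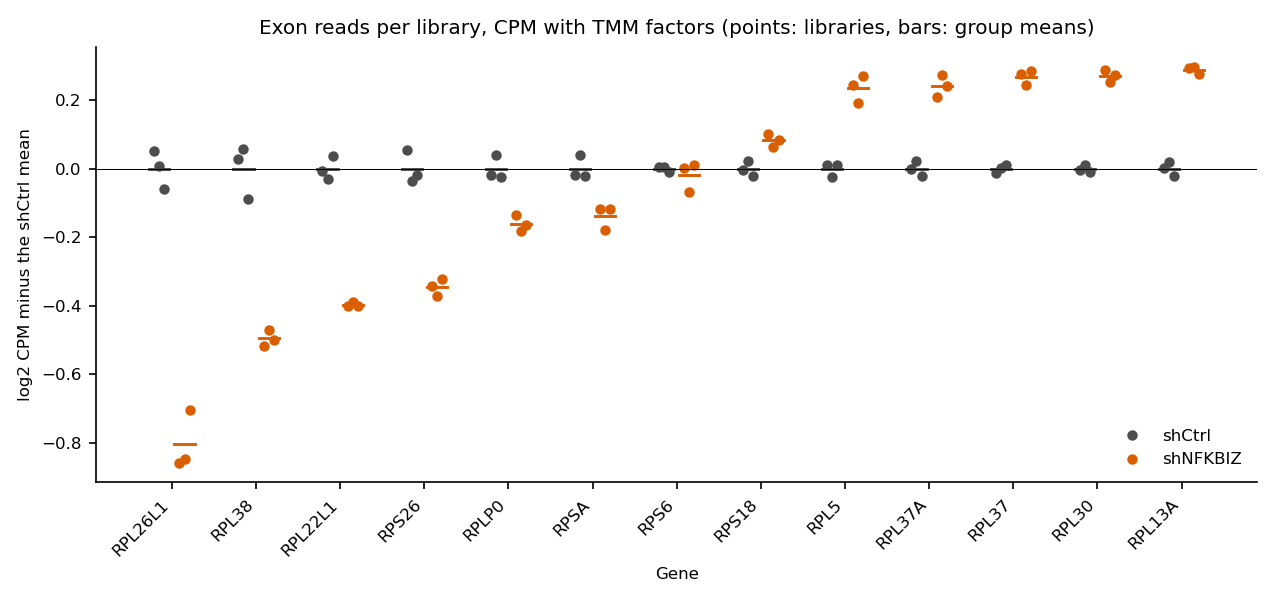
Log2 CPM of 13 genes in each library, minus the mean of the shCtrl libraries of that gene. Points are libraries and bars are group means of 3. The shNFKBIZ libraries lie below shCtrl for RPL26L1 to RPSA, overlap with it for RPS6 and lie above it for RPS18 to RPL13A.

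RPL38 (ENSG00000172809, chr17:74203582-74210655, plus strand) fell furthest among the genes that are not paralogs. This 60S protein is known for its role in the translation of Hox mRNAs in the mouse embryo. It had 558, 568 and 514 CPM in shCtrl and 382, 394 and 386 CPM in shNFKBIZ. The highest shNFKBIZ library was well below the lowest shCtrl library, and RPL38 fell by 0.50 on the log2 scale (SE 0.037, adjusted P = 9.68e-11).

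RPS26, a 40S protein at the mRNA exit site, was singled out after its values were seen, as the fourth gene beyond 0.3. It had 351, 330 and 334 CPM in shCtrl and 267, 262 and 271 CPM in shNFKBIZ. The groups did not overlap, and RPS26 fell by 0.35 on the log2 scale (SE 0.034, adjusted P = 1.22e-08).

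The ribosomal stalk recruits the translation factors that hydrolyse GTP and consists of RPLP0 with RPLP1 and RPLP2. RPLP0 (ENSG00000089157, chr12:120196699-120201235, minus strand) had 2538, 2641 and 2525 CPM in shCtrl and 2340, 2264 and 2290 CPM in shNFKBIZ. All of its shNFKBIZ libraries were lower, and it fell by 0.16 on the log2 scale (SE 0.033, adjusted P = 0.000213). RPLP1 fell by 0.12 (adjusted P = 0.00263), and RPLP2 differed by -0.0067 (adjusted P = 0.871). With library size as the only scaling, or on exon-junction reads, RPLP1 was no longer called. Under the former scaling RPLP2 turned to 0.083 and was called higher (adjusted P = 0.0178). RPLP0, like RPL37A, is in use as a qPCR reference, and the log2 fold changes of the pair differed by 0.40.

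RPL5 and RPL11 bind the 5S ribosomal RNA and, outside the ribosome, the ubiquitin ligase MDM2. RPL5 had 1176, 1148 and 1177 CPM in shCtrl and 1384, 1334 and 1410 CPM in shNFKBIZ. Its groups did not overlap, and it rose by 0.24 ± 0.033 on the log2 scale (adjusted P = 1.65e-06). RPL11 differed by 0.07 (adjusted P = 0.096) and was not called, but on reads that span an exon junction it passed the threshold (log2 fold change 0.11, adjusted P = 0.00719).

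In the small subunit, RPS6, the substrate of the S6 kinases, had 2093, 2091 and 2070 CPM in shCtrl and 2088, 1989 and 2100 CPM in shNFKBIZ. The groups overlapped, and the log2 difference was -0.02 ± 0.033 (adjusted P = 0.651). With library size as the only scaling the difference turned to 0.071 and RPS6 was called higher (adjusted P = 0.0289 by edgeR). RPSA, a 40S protein also described as a laminin receptor, had 1876, 1954 and 1873 CPM in shCtrl and 1752, 1678 and 1753 CPM in shNFKBIZ. All shNFKBIZ libraries were lower, and RPSA fell by 0.14 (SE 0.033, adjusted P = 0.00105), although only 34.2% of its reads were unique and it was not called with library size as the only scaling or after removal of a trend on length and GC content.

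The genes with the highest mean TPM, RPL41, RPS12 and RPS18, moved little. TPM here divides by the length of all annotated exons together, which exceeds that of most transcripts, so the order between genes is approximate. RPL41, the smallest ribosomal protein, had 1583, 1620 and 1534 CPM in shCtrl and 1549, 1539 and 1564 CPM in shNFKBIZ, with overlapping groups. The log2 differences were -0.03 for RPL41 (adjusted P = 0.496) and -0.05 for RPS12 (adjusted P = 0.216). On exon-junction reads RPL41 changed sign and was called higher, at 0.13 (adjusted P = 0.00841). RPS18, a protein of the 40S head, rose by 0.08 (adjusted P = 0.027), a call that was lost in 6 of the alternative analyses. RPS21 and RPS10 lay near the median, with log2 differences of 0.04 each, and neither was called, although both were called higher on exon-junction reads.

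The paralogs held the most extreme change of the family and went in both directions. RPL26L1 (ENSG00000037241, chr5:172958729-172969771, plus strand), a near copy of RPL26, had 44.6, 43.2 and 41.3 CPM in shCtrl and 23.7, 23.9 and 26.4 CPM in shNFKBIZ. The groups were far apart, and RPL26L1 fell by 0.80 on the log2 scale (SE 0.057, adjusted P = 4.73e-11). Its parent RPL26, a protein near the exit of the peptide tunnel, had 774, 763 and 777 CPM in shCtrl and 888, 851 and 905 CPM in shNFKBIZ and rose by 0.19 (adjusted P = 2.59e-05).

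RPL22L1 (ENSG00000163584, chr3:170864875-170870208, minus strand), the copy of RPL22, had 206, 202 and 212 CPM in shCtrl and 156.4, 157.8 and 156.4 CPM in shNFKBIZ. No library overlapped with the other group, and RPL22L1 fell by 0.40 (SE 0.035, adjusted P = 1.49e-09). RPL22, an RNA-binding 60S protein known to hold down its paralog, rose by 0.25 (SE 0.032, adjusted P = 5.04e-07) from 375, 363 and 357 CPM to 431, 436 and 439 CPM. On reads that span an exon junction, however, RPL22 had a log2 difference of 0.04 (adjusted P = 0.391).

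RPL7L1 fell by 0.20 (adjusted P = 1.8e-05) and its parent RPL7 by 0.16 (adjusted P = 0.000452). RPL39L rose by 0.17 (adjusted P = 0.00952), whereas RPL39 fell by 0.12 (adjusted P = 0.00512). RPS27L rose by 0.13 (adjusted P = 0.00736) and RPS27 by 0.17 (adjusted P = 0.000108). The calls of RPL39, RPL39L and RPS27L did not hold in every alternative analysis: RPL39 lost its call with library size as the only scaling and on exon-junction reads, RPL39L without the third shCtrl library and on exon-junction reads, and RPS27L without the third shNFKBIZ library. RPL3 and RPL10, the parents of both untested paralogs, had log2 differences of 0.02 and -0.05 and were not called. Thus the copy and the parent were called in opposite directions in 3 of the 5 tested pairs and in the same direction in 2.

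For most of these genes few exon reads were counted as shared. In 68 of the 82 genes, over 99% of exon reads were unique, as the mapping software counted them. In 9 genes under 90% were unique and in 6 under 50%. Ribosomal protein pseudogenes were not among the genes listed and were not analysed here. A read from one could be counted for its parent, which the unique share may not show. On unique exon reads alone, 37 genes were higher and 18 lower. RPL23A and RPS27A passed the threshold on unique reads only, by a narrow margin (adjusted P = 0.0473 and 0.0496), and RPL17 changed direction. The log2 fold change moved by 0.0025 in the median.

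RPL17 was the exception. Only 6.27% of its reads were unique, and the annotation places the readthrough gene RPL17-C18orf32 over it, whose part in the low share was not tested. Its total reads gave 956, 981 and 963 CPM in shCtrl and 1144, 1093 and 1144 CPM in shNFKBIZ, a log2 rise of 0.22 (adjusted P = 3.54e-06). Its unique reads gave a log2 change of -0.24 (adjusted P = 1.52e-05), a difference of 0.47 between the read sets, and the direction for RPL17 is therefore uncertain. RPS10, with 14.7% unique reads, had log2 differences of 0.04 on total reads and of 0.06 on unique reads and was called on neither set.

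**Figure D3:**
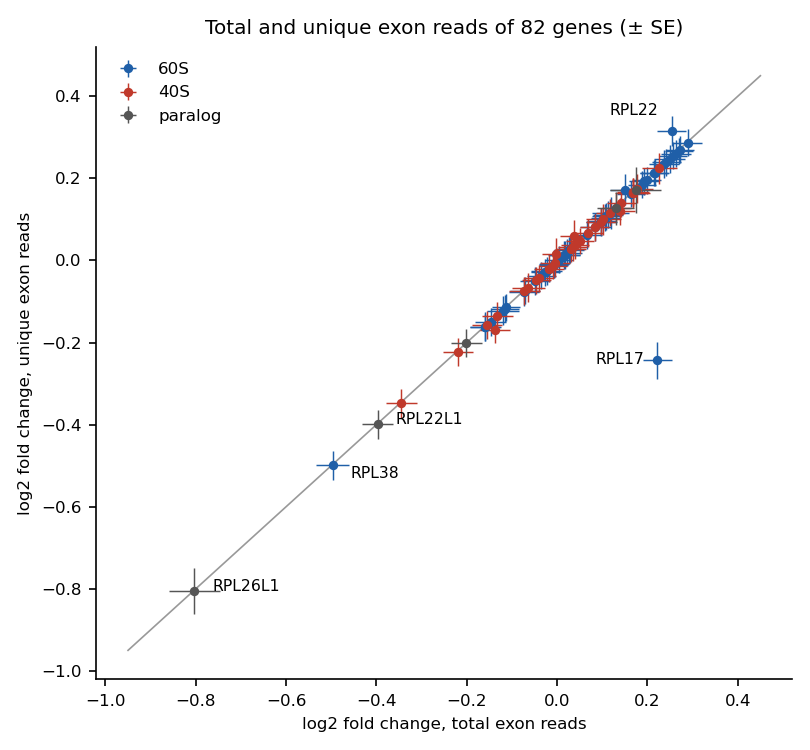
Log2 fold change of each of the 82 genes on total (x axis) and unique exon reads (y axis), with SE bars and a line of equal values. Apart from RPL17, at 0.22 and -0.24, the points lie on or near the line.

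Intron reads come largely from unspliced RNA and gave a separate set of reads for the same genes. They were few, with a median of 493.5 reads per gene over all 6 libraries, and 71 of the genes could be tested. Of these, 14 (19.7%) were higher and 3 (4.2%) lower in shNFKBIZ cells (edgeR quasi-likelihood test, adjusted P of at most 0.05). Of all 12119 genes tested, 19.3% were higher and 19.5% lower. The share called higher was thus near that of all genes, and the share called lower was smaller. The median log2 fold change of the ribosomal protein genes was 0.15, against 0.0082 over all genes.

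The change of exon reads was then set against that of intron reads in one model. The changes differed in 16 of 71 genes, and 28.9% of all 11025 genes in that model were called. In 14 of the 16 (19.7% of the 71 genes) the exon change was below the intron change, and in 2 (2.8%) it was above. Over all genes in that model, 16.5% were called below and 12.4% above. The share called below was thus near that of all genes, and the share called above was smaller. The largest gap with the exon change below was in RPL26L1, at -0.81 ± 0.24 (adjusted P = 0.00683). It rested on 70 intron reads in the shCtrl libraries together and 75 in shNFKBIZ.

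RPL37A had the largest gap in the other direction. Its intron reads numbered 49, 65 and 66 in shCtrl and 25, 39 and 41 in shNFKBIZ. All shNFKBIZ libraries were lower, and intron reads fell by 0.87 on the log2 scale (SE 0.19, adjusted P = 0.000349) while exon reads rose. The exon change exceeded the intron change by 1.11 ± 0.18 (adjusted P = 1.65e-07). The RPL37A gene as annotated runs on far beyond the exons of the qPCR product, and no other annotated gene overlaps it. RPL38 fell in both read sets, by 0.50 on exon and 0.46 on intron reads (adjusted P = 0.00777), though a non-coding RNA gene, MGC16275, overlaps it and strand was not used in the counting.

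RPL35, a 60S protein at the exit of the peptide tunnel, had 157, 193 and 196 intron reads in shCtrl and 317, 329 and 295 in shNFKBIZ. They rose by 0.69 on the log2 scale (SE 0.089, adjusted P = 6.15e-08), while its exon reads differed by -0.07 (adjusted P = 0.067). WDR38 overlaps RPL35, so these reads cannot be assigned to RPL35 alone. RPL35, RPL7A and RPS2, named here after their values were seen, had the highest intron changes of the 14 genes that rose, and RPL37A, RPL38 and RPL23A were the 3 that fell. Other annotated genes also lie within or over RPS2 (SNORA10 and SNORA64), RPL7A (small nucleolar RNA genes) and RPL23A (TLCD1 and small nucleolar RNA genes among them). Intron reads of RPS2, RPL7A and RPL23A therefore cannot be assigned to these genes alone either. On both read sets 11 genes were called, and 3 of them, RPL37A, RPLP0 and RPS2, went in opposite directions. The same counts were not made over all genes, so whether these numbers are unusual was not tested.

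**Figure D4:**
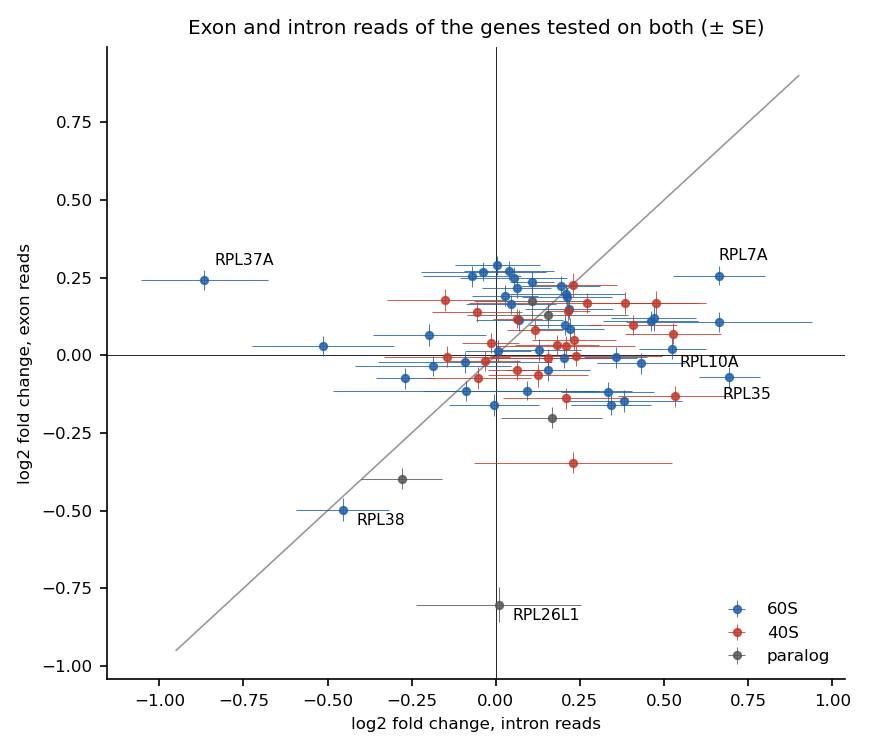
Log2 fold change on intron reads (x axis) and exon reads (y axis) for the 71 genes tested on both, with SE bars and a line of equal values. RPL37A lies far to the left at -0.87 and 0.24, RPL35 far to the right at 0.69 and -0.07, and RPL38 near the line.

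How far the choice of a ribosomal protein as the reference moves a fold change was asked by dividing reads of NFKBIZ by those of each reference in the same library. Against RPL37A, NFKBIZ was 4.06-fold lower in shNFKBIZ cells, with a log2 ratio of -3.73 ± 0.12 (SD, n = 3) in shCtrl and -5.75 ± 0.041 in shNFKBIZ. Against RPL13A it was 4.19-fold lower, against the mean of the ribosomal protein genes 3.51-fold, and against RPLP0 3.07-fold. In each case the groups did not overlap, and the exact two-sided permutation p was 0.1, the smallest that 3 against 3 allows. With TMM factors alone NFKBIZ was 3.43-fold lower.

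HPRT1, GAPDH and ACTB, references of other kinds, gave smaller fold changes than RPL37A did. NFKBIZ was 3.16-fold lower against HPRT1, 2.49-fold against GAPDH and 1.93-fold against ACTB. ACTB itself fell, from 3994, 4150 and 3696 CPM to 2272, 2169 and 2212 CPM (log2 fold change -0.83 ± 0.039, adjusted P = 7.84e-14). GAPDH fell by 0.46 (adjusted P = 1.09e-09) and HPRT1 by 0.12 (adjusted P = 0.0284).

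Each of the 82 genes was also taken as the only reference. NFKBIZ was lower with every one of them, by 1.96-fold against RPL26L1 to 4.19-fold against RPL13A, with a median of 3.54-fold. Genes with large changes kept their direction. IL1B, a cytokine gene among those followed in this study, was 36.8-fold lower against RPL37A and 27.8-fold lower against RPLP0. IL1A was 4.20-fold and 3.18-fold lower, CXCL8 5.89-fold and 4.46-fold, CXCL1 4.38-fold and 3.31-fold, and CXCL2 2.76-fold and 2.09-fold.

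HPRT1 and GAPDH, whose changes were smaller, did not keep their direction against every ribosomal protein gene. HPRT1 was 1.28-fold lower against RPL37A, with an exact permutation p of 0.1, whereas against RPLP0 its log2 ratio rose by 0.04 with an exact permutation p of 0.6. With single ribosomal protein genes as the reference, HPRT1 was lower against 69 and higher against 13. GAPDH was lower against 80 and higher against 2, and ACTB was lower against all 82.

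**Figure D5:**
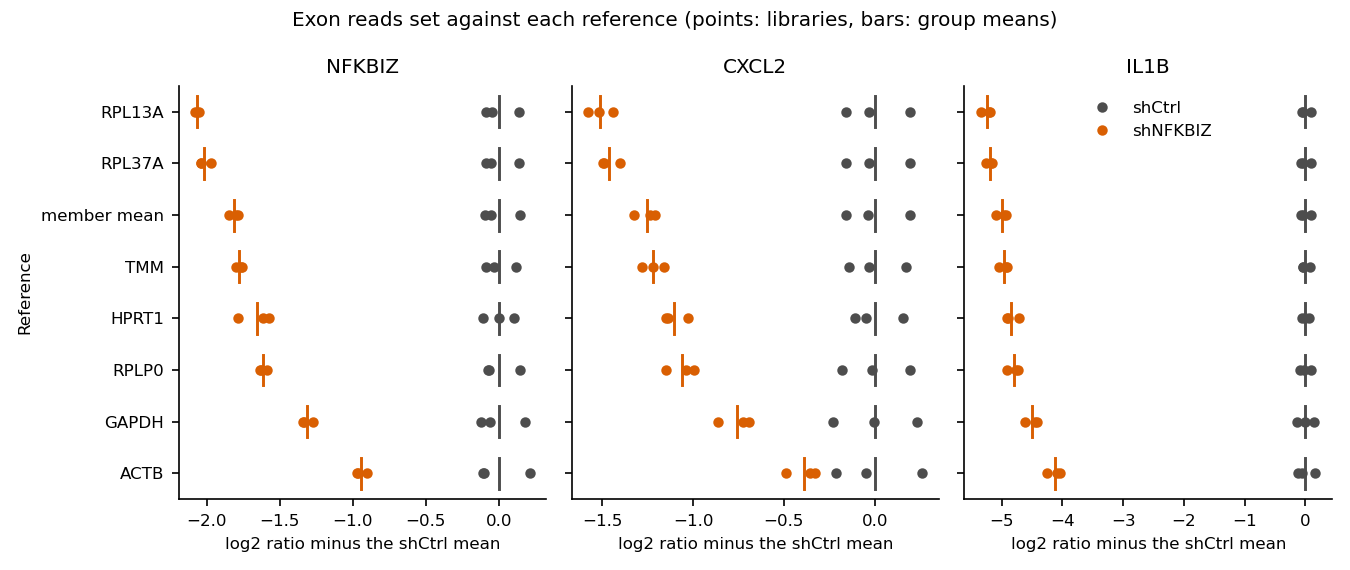
Log2 ratio of NFKBIZ, CXCL2 and IL1B reads to each reference (rows), minus the mean of the shCtrl libraries. Points are libraries, bars are group means of 3, and TMM stands for CPM with TMM factors. From RPL13A to ACTB the NFKBIZ difference shrinks from -2.07 to -0.95, while the IL1B difference stays between -5.25 and -4.13.

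Of 14 reference genes in common use, 3 were higher (21.4%), TBP and POLR2A among them, 8 lower (57.1%) and 3 not called. Over all genes tested, 32.5% were called higher and 32.8% lower. The log2 fold changes of the 14 ran from -0.83 (ACTB) to 0.31 (TBP). The ribosomal protein genes thus had a higher median, 0.04 against -0.13, and B2M had the smallest change of the 14, 0.0042 (adjusted P = 0.929). No test was made of the difference between both sets.

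Other genes of translation were followed as lists, none of which was tested as a set. For comparison with their counts, 32.5% of all genes tested were called higher and 32.8% lower. Of 4 ribosomal proteins outside the naming rule, 2 were lower and none was higher. RACK1, a scaffold protein of the 40S subunit, fell by 0.08 (adjusted P = 0.0477), and FAU and RPL36AL had log2 differences of -0.03 and -0.08. Of 17 genes listed as having TOP mRNAs, most of them translation factors, 9 were higher (52.9%) and 2 lower (11.8%), with a median of 0.10. Their start sites are not shown here. EEF1B2, a nucleotide exchange factor of elongation, rose by 0.37 (adjusted P = 1.18e-09) and EIF4A2, a helicase, by 0.36 (adjusted P = 6.36e-07), while HNRNPA1 fell by 0.38 (adjusted P = 2.45e-09).

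Of 21 initiation factors, 3 were higher (14.3%) and 8 lower (38.1%), with a median of -0.03, against 32.5% and 32.8% of all genes. EIF3I, a subunit of the eIF3 complex, fell most, from 307, 320 and 293 CPM to 198, 186 and 186 CPM, by 0.69 on the log2 scale (adjusted P = 6.71e-13). Of 35 ribosome biogenesis genes, 24 were higher (68.6%) and 5 lower (14.3%), with a median of 0.17, the highest of these lists. NOP56, a core protein of the box C/D particles that modify ribosomal RNA, had 220, 215 and 244 CPM in shCtrl and 369, 382 and 366 CPM in shNFKBIZ and rose by 0.72 (adjusted P = 1.03e-11). POLR1C, a subunit of RNA polymerases I and III, rose by 0.78 (adjusted P = 1.86e-06), whereas NPM1, the abundant nucleolar chaperone, fell by 0.76 (adjusted P = 1.55e-14).

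Of 21 tested genes that control TOP or ribosomal protein mRNAs, 8 were higher (38.1%) and 10 lower (47.6%), against 32.5% and 32.8% of all genes. MTOR, the kinase of mTORC1, had 64.8, 69.3 and 66.7 CPM in shCtrl and 35.4, 33.4 and 33.6 CPM in shNFKBIZ and fell by 0.97 (adjusted P = 1.09e-13). TSC2, which restrains mTORC1, rose by 0.63, EIF4EBP1 fell by 0.61, and LARP1 differed by 0.01 (adjusted P = 0.724). MDM2 rose by 0.27 (adjusted P = 1.81e-06). Of 11 genes of ribosome quality control and stress, 2 were higher (18.2%) and 8 lower (72.7%), with a median of -0.15. Among 78 mitochondrial ribosomal protein genes, 30 were higher (38.5%), 16 lower (20.5%) and 32 not called, with a median of 0.07.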

How the data were processed

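RNA-seq libraries of LOX-IMVI cells (3 shCtrl, 3 shNFKBIZ, grouped by their titles) were analysed. The authors used CLC Genomics Workbench for mapping (genome hg38, gene models from Ensembl) and deposited whole-number counts per gene for each library, as exon, intron, exon-exon and gene reads, total and unique. A pair counted once and strand was not used, so overlapping genes can share reads. The deposited exon length is an other value, the bases of all annotated exons of a gene. Deposited TPM and RPKM columns, written with a decimal comma, were not used, and TPM was recomputed from the counts.

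Total exon counts of all genes were filtered with filterByExpr, scaled with TMM factors and tested with edgeR 4.0.16 (glmQLFit, robust, and glmQLFTest, in R 4.3.3) with Benjamini-Hochberg adjustment. Intron reads were tested likewise, and exon against intron changes in one model with library as a block. Changes against the mean of the ribosomal protein genes used that mean as the scaling. Ratios to a reference were compared with an exact permutation test over 3 against 3 libraries. The scripts were tested on simulated counts. DESeq2 1.42.0 was an alternative. Start windows came from RefSeq and primers from the supplementary primer list of the study.

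The genes and lists were chosen with earlier results of these data known. The named genes were RPL37A, RPS6, RPSA, the stalk, RPL5, RPL11, the paralog pairs, the 3 called genes with the highest and the 3 with the lowest log2 fold change whose groups did not overlap, the 3 with the highest TPM, the 3 with the lowest unique share and the 3 nearest the median. A few of the genes so named or listed are not reported here. All 86 genes matched the annotation used for coordinates by identifier and position.

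Replicates differed by more than counting noise (chi-square per degree of freedom of 1.71 to 4.45 over all genes), so none was counted as a duplicate. TMM factors were 0.964 to 1.04. Depth was 22264473 to 24624839 exon reads per library, and tested ribosomal protein genes had at least 544 reads in each library. These limits cover counting error only.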

Additional observations from a re-analysis of the deposited data

How the results depend on the processing

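The counts of ribosomal protein genes called were recomputed under 18 alternatives. Leaving out 1 library at a time gave 32 to 38 genes higher and 15 to 19 lower, and no gene passed a 2-fold change in any of these analyses. With library size alone, 8 genes were lower instead of 15 and the median log2 fold change was 0.13 instead of 0.04. With exon-exon reads, an alternative chosen after seeing the data, the median was 0.091. DESeq2 gave 38 genes higher and 17 lower. Over their alternatives, 46 to 56 genes were called against the mean of the genes (52 as reported), 14 to 22 on intron reads (17 as reported) and 16 for exon against intron, the rise in the share of reads was 0.662 to 0.736 percentage points, and the log2 ratio of NFKBIZ to RPL37A differed by -2.06 to -1.95. The replicate numbers did not pair the libraries (correlations of the deviations of 0.021, 0.056 and 0.029), and with the replicate block 38 genes were higher and 15 lower. Of 540 values for 30 named genes, 500 kept direction and call, 16 lost the call, 10 gained it and 14 changed sign, of which RPL17 alone was a called gene. RPL17 had -0.24 on unique reads. With library size alone RPL10 had 0.041, RPL41 0.064, RPLP2 0.083, RPS12 0.043 and RPS6 0.071, and RPLP2 and RPS6 were then called higher. On exon-exon reads RPL41 had 0.13 and was called higher, RPLP2 had 0.037, RPS12 0.0013 and RPS6 0.014. Leaving out 1 library gave -0.030 to 0.014 for RPLP2, -0.0047 to 0.049 for RPL3 and -0.033 to 0.0062 for RPS6. The cause of these changes of sign was not tested. Summing each gene with its pseudogenes was not run, and TMM factors were recomputed without the ribosomal protein genes only. Few intron reads per gene limit what the intron comparison could detect.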
